A study of Mus musculus with 4 samples.

Results

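The genes described here are 9 myeloid and lipid-handling genes, Apoe, Trem2, Tyrobp, Gpnmb, Cd9, Lpl, Abca1, Fabp5 and Lyz2, out of 32285 genes in the deposited tables. They were chosen by symbol, with earlier results from these same libraries in view, for their UMIs in macrophages and as free RNA in tubule and T cells. Their levels are therefore a description, and each fit over all genes is quoted only to set a difference against the spread between libraries. All 9 symbols were found in each of the 4 gene tables.

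The series holds single-cell RNA from whole kidney of 2 trnE mutant mice, which carry a base change in the gene for the glutamate tRNA of mitochondria, and of 2 wild-type mice, with C57BL/6J named as the wild-type strain. The mutation load, the share of mitochondrial DNA copies with the mutation, is given by the labels as 79% for mutant 1 and 76% for mutant 2; the deposited name of mutant 1 carries a different number, so the order of the mutants by load is uncertain. Every kidney was dissociated with Liberase, and live cells were sorted by a viability dye and loaded on a droplet 3′ platform. Each library came from 1 mouse, so the 2 libraries of a group are its replicates. The labels used here give neither the age nor the sex of the mice.

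Apolipoprotein E (Apoe) is a secreted lipid carrier that takes up cholesterol exported from cells by the transporter Abca1, and it is a ligand of the receptor Trem2. Trem2 sits on macrophages, binds lipids and cell debris, and signals through the adaptor Tyrobp, also called DAP12. Macrophages that have taken up much lipid, in fat tissue, atheroma or injured brain, are known for a shared programme with Trem2, Apoe, the glycoprotein Gpnmb, the tetraspanin Cd9, the triglyceride hydrolase Lpl and the fatty acid carrier Fabp5. Lyz2 encodes lysozyme M, an antibacterial enzyme of macrophages, monocytes and neutrophils.

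All 9 genes are protein-coding genes on the mm10 (GRCm38) build, placed here by the GENCODE M21 annotation. Apoe (ENSMUSG00000002985) lies at chr7:19696109-19699188 on the minus strand, Trem2 (ENSMUSG00000023992) at chr17:48346401-48354147 on the plus strand and Lyz2 (ENSMUSG00000069516) at chr10:117277331-117282321 on the minus strand. Cd9 (ENSMUSG00000030342) is the only one of the 9 that overlaps other annotated genes, Gm28809 and Gm26728 on the opposite strand. No promoter activity was measured. The sequences from 250 bases before to 50 bases after the annotated start are shown for Apoe, Trem2 and Lyz2, because macrophages of either mutant had more of their RNA than macrophages of either wild type. They are written 5′ to 3′ on the gene's strand from RefSeq (GRCm38.p6), and capitals mark GAGGAA or its reverse complement TTCCTC, the core of sites of the myeloid factor PU.1. The windows are chr7:19699139-19699438 for Apoe, chr17:48346151-48346450 for Trem2 and chr10:117282223-117282522 for Lyz2.
Apoe: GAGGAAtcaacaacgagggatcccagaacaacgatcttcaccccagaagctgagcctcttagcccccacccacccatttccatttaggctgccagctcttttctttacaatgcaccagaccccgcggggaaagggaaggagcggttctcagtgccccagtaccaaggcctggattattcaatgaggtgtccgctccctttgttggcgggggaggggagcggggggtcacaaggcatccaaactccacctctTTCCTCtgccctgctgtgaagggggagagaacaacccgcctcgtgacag
Trem2: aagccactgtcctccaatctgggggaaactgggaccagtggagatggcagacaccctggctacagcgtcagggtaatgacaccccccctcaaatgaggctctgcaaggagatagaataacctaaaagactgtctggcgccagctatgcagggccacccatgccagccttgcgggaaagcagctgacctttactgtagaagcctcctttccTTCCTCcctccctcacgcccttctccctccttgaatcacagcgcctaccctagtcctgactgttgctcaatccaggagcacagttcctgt
Lyz2: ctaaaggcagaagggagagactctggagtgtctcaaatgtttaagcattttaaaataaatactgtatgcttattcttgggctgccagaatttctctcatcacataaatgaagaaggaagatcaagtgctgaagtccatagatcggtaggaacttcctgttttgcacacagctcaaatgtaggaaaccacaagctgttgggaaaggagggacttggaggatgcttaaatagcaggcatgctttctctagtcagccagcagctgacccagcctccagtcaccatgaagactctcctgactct

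The Apoe window held 2 matches of the GAGGAA core, the Trem2 window 1 and the Lyz2 window 0, with both strands searched. The core occurred in 28.3% of the 32851 promoter windows in the RefSeq table, so a match in 1 window is common. A promoter window was found for 6 of the 9 genes, with 3 starts for Apoe. The E-box CANNTG, in 72.3% of all windows, had 2 matches in the Trem2 window and 4 in the Lyz2 window. The M-box TCATGTG, bound by MITF and TFE factors and present in 3.77% of all windows, was in none of the windows of the 9 genes. The direct repeat bound by the cholesterol-sensing receptor LXR with RXR was searched in its strict form, with 4 free bases between the half-sites. It was in 5 of all windows and in none of these, that of the known LXR target Abca1 included. Looser forms were not searched, so the absence of so rare a match does not show that a window lacks an LXR site.

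Depth and cell numbers differed among libraries before any gene was compared. The 4 tables held 7242 to 11744 cell barcodes and 42121175 to 70013861 UMIs, and 5671 to 9535 cells per library remained after filters, with median UMIs of 4366 to 6465.5 per cell. Between 14 and 26 barcodes were shared by any pair of libraries, at most 0.342% of the smaller one. Macrophages made up 2787 of 9535 cells (29.2%) in mutant 1 and 1751 of 8916 (19.6%) in mutant 2, against 827 of 5671 (14.6%) in wild type 1 and 57 of 6306 (0.904%, exact 95% binomial interval 0.685% to 1.17%, counting error only) in wild type 2. Wild type 2 therefore stands apart, and every macrophage value from it rests on 57 cells and 432551 UMIs, against 5498404 to 17777985 UMIs in the other 3 libraries. The mean share was 24.4 ± 6.78% in mutants and 7.74 ± 9.67% in wild types (SD, n = 2 each), with a two-sided exact permutation p of 0.333, the smallest that 2 against 2 allows. The 2 mutant libraries were processed with Cell Ranger 7.0.0 and the 2 wild-type libraries with 7.1.0, per the submitters' processing notes, so version and genotype cannot be told apart.

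Levels are given as counts per 1000000 UMIs (CPM) summed over the cells of a class in a library. Apoe was highest in macrophages, where its 4 libraries spanned 4974 to 13675 CPM, above monocytes at 2610 to 3767 CPM without overlap. B cells came next at 451 to 2138 CPM, overlapping neutrophils, proximal tubule and endothelium. Trem2 was the most restricted of the 9: macrophages had 92.6 to 180 CPM and monocytes 43.6 to 113 CPM, ranges that overlapped, and no other named class passed 24.1 CPM, reached in the class named distal tubule of wild type 1 with 37 UMIs. That class is mixed, as a cluster in it (cluster 20, 496 cells) was led by Fxyd4, Mgp, Col1a2 and Hsd11b2. Its leading genes include markers of principal cells, fibroblasts and podocytes beside those of distal tubule. Macrophages held 91.0% and 86.5% of all Trem2 UMIs in mutants 1 and 2, against 75.1% and 53.0% in wild types 1 and 2. Of all Apoe UMIs, macrophages held 87.3% and 84.0% in mutants 1 and 2, against 61.2% and 14.1% in wild types 1 and 2.

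The remaining genes had other leading classes. Lyz2 was highest in monocytes at 13358 to 20879 CPM, followed by macrophages at 4562 to 8039 CPM, neutrophils at 2183 to 4036 CPM and dendritic cells, with no overlap between these neighbours. Tyrobp led in neutrophils at 5855 to 7298 CPM, above monocytes, macrophages and dendritic cells, whose ranges overlapped. Cd9 was highest in neutrophils and endothelium, which overlapped, and Fabp5 was highest in endothelium at 331 to 437 CPM. Lpl was highest in thick ascending limb, a distal nephron segment, at 203 to 370 CPM, and macrophages at 81.3 to 160 CPM overlapped distal tubule and proximal tubule. Abca1 had its highest mean in macrophages, 59.0 CPM, with ranges overlapping those of its neighbours. Gpnmb did not exceed 14.3 CPM in any named class and library, and its highest mean was 7.33 CPM in natural killer (NK) cells.

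**Figure D1:**
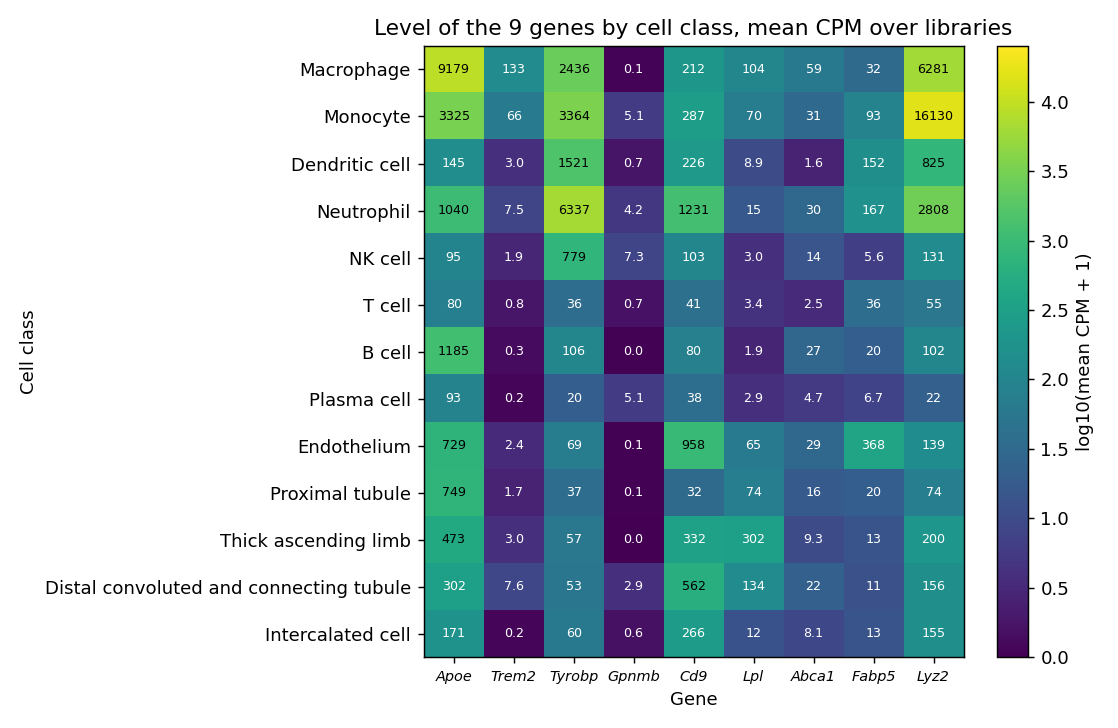
Mean level of the 9 genes in 13 cell classes, in CPM over the libraries with at least 20 cells of the class (3 libraries for neutrophils and endothelium, otherwise 4). Rows are classes, columns are genes, numbers are mean CPM and colour is log10(mean CPM + 1); Apoe and Trem2 have their highest mean in macrophages, Lyz2 in monocytes and Tyrobp in neutrophils.

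Across 50 class-by-library sums in 13 classes, the 5 of 9617 genes most like Apoe were Adgre1 (Pearson r of 0.82 on log2(CPM + 1)), Ms4a7, Blvrb, Ctsa and Msr1. Those most like Trem2 were Lilra5 (r of 0.88), Fcgr1, Msr1, Csf1r and Ctsb, and Lyz2 stood at rank 6 with an r of 0.83. Points from 1 library share its depth and its free RNA, and these correlations are a description only. Apoe itself was at rank 78 in the order for Trem2, with an r of 0.72.

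The comparison of macrophages between genotypes asks which of these genes differed with the tRNA mutation. Apoe, Trem2, Tyrobp and Lyz2 were higher in both mutant libraries than in both wild-type libraries, Cd9 and Lpl were lower in both, Abca1 and Fabp5 overlapped, and Gpnmb was nearly undetected. None of the 8 genes tested passed an adjusted p of 0.05 in the edgeR quasi-likelihood fit with Benjamini-Hochberg adjustment. The same fit called 2 of 12534 genes, 0.016%, both higher in the mutants (0.016% of genes in that direction), and 641 genes (5.11%) had an unadjusted p under 0.05. DESeq2 called 4 genes and no member. Scaling by library totals called 30 genes, 4 higher and 26 lower in mutants, and no member. Both mutants lay above both wild types for 12.3% of all genes and below both for 33.7%, against 4 and 2 of the 8 members.

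The receptor Trem2 measured 180 and 157 CPM in macrophages of mutants 1 and 2, against 92.6 and 102 CPM in wild types 1 and 2. The groups did not overlap, and the counts behind them were 3206 and 2315 UMIs in mutants and 509 and 44 UMIs in wild types. The log2 fold change was 1.17 with a standard error of 0.39 (unadjusted p = 0.00932, adjusted p = 0.731, edgeR). Its adaptor Tyrobp had 3300 and 2570 CPM in mutant macrophages, against 2492 and 1385 CPM in wild-type macrophages. Mutant 2 and wild type 1 were nearly level, and the log2 fold change was 0.93 with a standard error of 0.61 (adjusted p = 0.731, edgeR).

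The ligand Apoe measured 10119 and 13675 CPM in macrophages of mutants 1 and 2, against 4974 and 7948 CPM in wild types 1 and 2. The replicates of a group were spread widely, and the lowest mutant stood above the highest wild type. Its log2 fold change was 1.27 with a standard error of 0.65, a 2.42-fold higher fitted level in mutants (adjusted p = 0.731, edgeR), and it lay between 1.19 and 1.43 when each library was left out. Lyz2 had 7066 and 8039 CPM in mutant macrophages, against 4562 and 5456 CPM in wild-type macrophages, a log2 fold change of 0.97 with a standard error of 0.62. Reads of Lyz2 may not be told apart from those of its near-identical copy Lyz1, at 2.31 to 13.3 CPM in macrophages. The size of this effect on the Lyz2 values was not measured.

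Lpl and Cd9 had lower CPM in both mutants, with fitted changes smaller than their standard errors. Lpl, which releases fatty acids from triglycerides, had 81.3 and 83.4 CPM in mutant macrophages, against 93.1 and 160 CPM in wild-type macrophages, and a log2 fold change of -0.18 with a standard error of 0.36. Cd9 measured 187 and 177 CPM in mutants and 281 and 201 CPM in wild types, a log2 fold change of -0.08 with a standard error of 0.43; its direction turned without mutant 2 (0.10) and without wild type 1 (0.49), and that of Lpl turned without wild type 2 (0.02). These CPM values and the fitted changes are on different scales, because the fit also uses scaling factors of 0.789 and 0.975 for mutants and 0.992 and 1.31 for wild types.

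The cholesterol exporter Abca1 measured 37.4 and 58.1 CPM in mutant macrophages, against 29.5 and 111 CPM in wild-type macrophages. Both mutants lay between the 2 wild types, and the fitted log2 fold change of 0.06 turned to -0.39 with library totals and to -0.01 with DESeq2. Fabp5 had 32.1 and 16.4 CPM in mutants, against 6.18 and 74.0 CPM in wild types, and its log2 fold change of 0.43 turned to -0.29 with library totals and to -0.08 with DESeq2. Without wild type 2, whose Fabp5 value rests on 32 UMIs, the change was 2.22 (adjusted p = 3.68e-05, edgeR, where 46 of 13447 genes, 0.342%, were called). That fit sets both mutants against wild type 1 alone, which is assumed to vary as the mutants do, and the change was -0.93 without wild type 1. Gpnmb had 1 and 2 UMIs in mutant macrophages, against 1 and 0 UMIs in wild-type macrophages, too few for the fit; the 0 of wild type 2 allows up to 6.94 CPM.

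**Figure D2:**
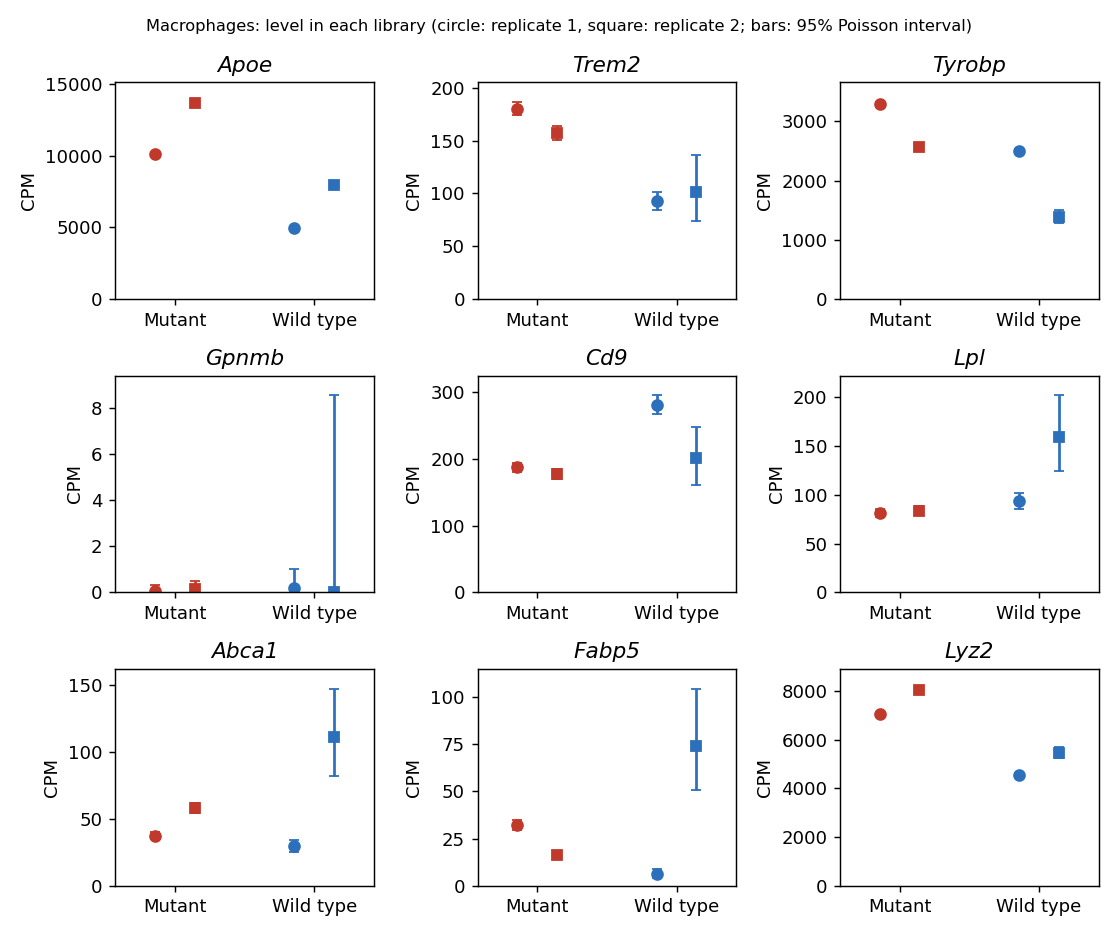
Level of each gene in macrophages, 1 panel per gene, in CPM on a linear axis. Each point is 1 library, mutants in red at the left and wild types in blue at the right, and bars are exact 95% Poisson intervals for counting error; Apoe, Trem2, Tyrobp and Lyz2 are higher in both mutants, while the wild-type points of Abca1 and Fabp5 lie on either side of the mutants.

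The share of macrophages with at least 1 UMI was compared after each cell was thinned to 1000 UMIs. Trem2 was found in 14.2% and 12.5% of thinned macrophages in mutants, against 6.23% and 9.09% in wild types, and in 42.2% and 44.7% against 26.1% and 28.1% in wild types without thinning. Apoe was found in 75.8% and 83.5% of thinned macrophages in mutants, against 61.5% and 69.1% in wild types, and in 86.2% and 93.3% in mutants, against 73.5% and 75.4% in wild types, without thinning. For each gene the groups did not overlap, with an exact permutation p of 0.333, the smallest possible. In T cells, which should lack both genes, Trem2 was in 2 of 1235 (0.162%) and 2 of 2794 (0.0716%) thinned mutant cells. In wild types it was in 0 of 624 and 0 of 805 cells, which allow shares of up to 0.481% and 0.373%. These counts are too few to set the groups apart. The share with Apoe in T cells was 13.04% and 10.7% in mutants, against 2.72% and 2.98% in wild types (36.0% and 44.2%, against 10.5% and 13.8%, without thinning), at median depths of 3590 and 5050 UMIs in mutants and 4499 and 6894 in wild types. Macrophage depths were 5617 and 7759 UMIs in mutants and 5775 and 7242 in wild types, and thinning left out 2 to 63 macrophages per library.

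Macrophages were not uniform for these genes. The cluster led by Ccl8, Pf4 and Mrc1 (cluster 4; 798, 752, 183 and 25 cells in mutants 1 and 2 and wild types 1 and 2) had Apoe at 18569 and 21417 CPM in mutants, against 10672 and 14537 CPM in wild types. The cluster led by Mmp12 and Ms4a7 (cluster 1; 1325, 770, 528 and 24 cells) had Apoe at 5643 and 7530 CPM in mutants, against 3378 and 1390 CPM in wild types. Apoe was thus higher in cluster 4 in all 4 libraries, and within each cluster both mutants were above both wild types. Trem2 followed the same order, with 271 and 204 CPM in mutants and 169 and 151 CPM in wild types in cluster 4, against 134 and 130 CPM in mutants and 73.9 and 84.2 CPM in wild types in cluster 1. Lyz2 did too, with 10106 and 11060 CPM in mutants and 9583 and 8163 CPM in wild types in cluster 4, against 4962 and 5726 CPM in mutants and 3014 and 3222 CPM in wild types in cluster 1.

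Cd9 was instead lower in cluster 4 than in cluster 1 in every library. It had 113 and 115 CPM in mutants and 199 and 170 CPM in wild types in cluster 4. In cluster 1 it had 216 and 235 CPM in mutants and 300 and 232 CPM in wild types, where the groups overlapped. Abca1 was higher in cluster 4 than in cluster 1 in every library, at 74.4 and 89.4 CPM in mutants and 64.4 and 137 CPM in wild types. Tyrobp was at 3389 and 2631 CPM in mutants and 2601 and 1479 CPM in wild types in cluster 4, against 3483 and 2636 CPM in mutants and 2487 and 1229 CPM in wild types in cluster 1. Another cluster (cluster 13) was led by Mmp12 together with heat shock and chemokine genes, and had Apoe at 8304 and 7582 CPM in mutants and 4015 CPM in wild type 1, with 6 cells in wild type 2. The 9 genes were kept out of the genes used for clustering, but other genes of the same cells made the clusters, so these differences are not tests.

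**Figure D3:**
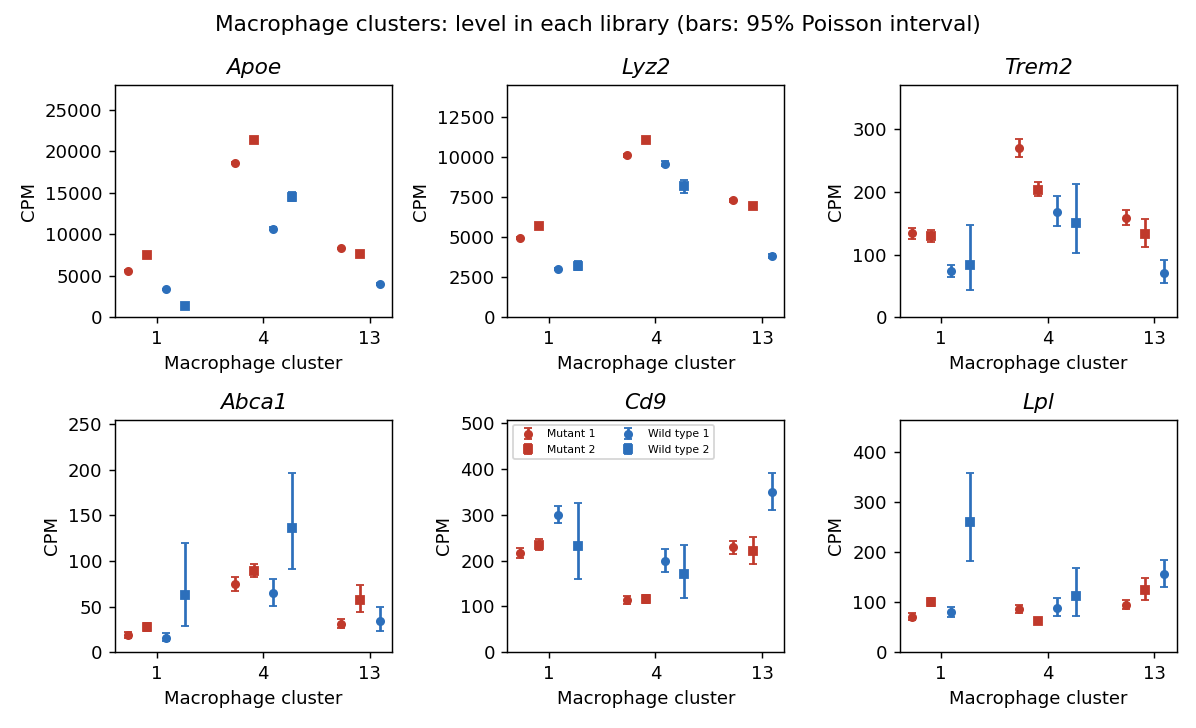
Level of 6 genes in the 3 largest macrophage clusters, in CPM on a linear axis. Each point is 1 library with at least 20 cells in the cluster, mutants in red left of wild types in blue, and bars are exact 95% Poisson intervals. Apoe, Trem2, Lyz2 and Abca1 are higher in cluster 4 than in cluster 1, and Cd9 is lower. In wild type 2 the bars of Trem2, Abca1 and Cd9 overlap between these clusters.

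Other RNA in the macrophage class was measured beside these values. The 14 proximal tubule markers summed to 412 and 182 CPM in mutant macrophages and 295 and 666 CPM in wild-type macrophages, with none at 0. The 13 T cell markers summed to 57.5 and 177 CPM in mutants and 66.6 and 169 CPM in wild types, with 2 of them at 0 in wild type 2. Mitochondrially encoded transcripts took 20761 and 30476 CPM in mutants, against 26164 and 44718 CPM in wild types. Dendritic cell markers were higher in both mutants, with sums of 894 and 740 CPM, against 646 and 594 CPM in wild types, although 3 of 9 had a positive fitted change (median -0.39). Monocyte markers were lower, at 379 and 378 CPM in mutants and 435 and 673 CPM in wild types, with 5 of 11 at 0 in wild type 2. Markers of the distal convoluted and connecting tubule were also lower, at 294 and 713 CPM in mutants and 742 and 867 CPM in wild types. Those of intercalated cells (26.0 and 10.8 CPM in mutants, 8.91 and 6.94 CPM in wild types) and podocytes (12.1 and 12.4 CPM in mutants, 9.09 and 6.94 CPM in wild types) were low and higher in mutants. Sums of the remaining lists overlapped; among them, all 8 endothelium markers tested had positive fitted changes, with a median of 0.72. The part of these in the differences was not tested. All 11 macrophage markers had positive fitted changes, with a median of 0.70 on the log2 scale, and none was called.

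The pathway lists around these genes did not yield a called gene in macrophages. Of 12 genes of Trem2 signalling, 10 were tested, with a median log2 change of -0.25 and 4 positive, beside a median of 0.02 and 51.0% positive over all genes. Inpp5d, a phosphatase that restrains this signalling, had 195 and 375 CPM in mutants and 450 and 647 CPM in wild types (log2 change -0.59, standard error 0.45). Of 16 LXR target and cholesterol efflux genes, 15 were tested, with a median of 0.10 and 9 positive. Pltp, which moves phospholipids between lipoproteins, had 152 and 240 CPM in mutants and 111 and 155 CPM in wild types (0.93, standard error 0.39). Of 17 lipid uptake and storage genes, 15 were tested, with a median of -0.23 and 6 positive. Pparg, a receptor for fatty acids, had 52.6 and 79.4 CPM in mutants and 110 and 268 CPM in wild types (-1.06, standard error 0.40), and Scarb1, the HDL receptor, was also lower in both mutants.

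The lysosome list had 20 of 20 genes tested, with a median of 0.66 and 16 positive. Grn, which encodes the lysosomal protein progranulin, had 395 and 594 CPM in mutants and 333 and 250 CPM in wild types (1.06, standard error 0.46), and Hexa, a lysosomal hexosaminidase, was likewise higher in both mutants. For the list of genes described in lipid-associated and disease-associated macrophages, 19 of 20 symbols were in the gene table and all 19 were tested, with a median of 0.54 and 17 positive. Within it Lgals1, a galectin, had 159 and 136 CPM in mutants and 92.6 and 76.3 CPM in wild types (1.12, standard error 0.40), while Mmp12, a macrophage elastase, was lower in both mutants at 122 and 88.7 CPM, against 439 and 178 CPM in wild types (-1.26, standard error 0.52). Ch25h and Cd63 stand in 2 of the lists each. Of the other genes with the smallest p in their list, Treml2, in the Trem2 signalling list, had 1.97 and 3.19 CPM in mutants and 1.09 and 0 CPM in wild types. The log2 change was 0.62 for Hcst in the same list, 1.03 for Apoc2 and 0.61 for Nr1h2 among the LXR genes, 0.75 for Ctsd in the lysosome list and 1.03 for Spp1 in the lipid-associated list. The mutant and wild-type values of Apoc2, Nr1h2, Ctsd and Spp1 overlapped. The pathway genes named here, chosen by the smallest p in their list, all had an adjusted p of 0.731 (edgeR).

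The 2 genes called in macrophages are named because they are so few, after their values were seen. Ccl7, a monocyte-attracting chemokine, had 146 and 80.2 CPM in mutants, against 2.73 and 16.2 CPM in wild types (adjusted p = 0.0274, edgeR). Fcrls, a scavenger receptor-like gene, had 107 and 94.0 CPM in mutants, against 17.8 and 25.4 CPM in wild types (adjusted p = 0.0380, edgeR).

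Monocytes, the blood-derived precursors of many macrophages, numbered 172 and 529 in mutants and 361 and 69 in wild types. No member was called there, against 2 of 9228 genes, 0.0217%, both higher in the mutants (0.0217%). Both mutants were above both wild types for 2 of the 8 tested members, Trem2 and Lyz2, and below both for 0, beside 12.3% and 27.6% of all genes; 3.10% of genes had an unadjusted p under 0.05. Trem2 measured 113 and 63.9 CPM in mutant monocytes, against 43.6 and 44.7 CPM in wild-type monocytes, a log2 change of 1.22 with a standard error of 0.39 (adjusted p = 0.857, edgeR). Without mutant 2, when mutant 1 stands alone and 139 of 8992 genes (1.55%) were called, the change was 1.67 and passed (adjusted p = 0.00685, edgeR), and so did Lpl, at 145 and 41.8 CPM in mutants and 60.9 and 30.3 CPM in wild types (1.19 with both mutants, 1.89 with an adjusted p of 0.00317 without mutant 2, and -0.14 without mutant 1).

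Apoe overlapped between the groups in monocytes, at 3767 and 3462 CPM in mutants and 2610 and 3463 CPM in wild types. Its log2 change was 0.48 with a standard error of 0.41. Lyz2 had 20879 and 15847 CPM in mutants, against 14437 and 13358 CPM in wild types, with no overlap. The 2 called monocyte genes, named after their values were seen, were Retnla, at 159 and 88.2 CPM in mutants and with 0 UMIs in the wild types, which allows up to 1.16 and 4.32 CPM (adjusted p = 0.000228, edgeR), and Lyz1, the copy of Lyz2, at 30.3 and 38.1 CPM in mutants and 5.40 and 2.88 CPM in wild types (adjusted p = 0.0245, edgeR). In the same monocytes 8 of 11 macrophage markers had positive changes, with a median of 1.01 and none called, and all 10 T cell markers tested had positive changes, with a median of 1.25. Their part in the Trem2 values was not tested.

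Outside myeloid cells, low levels of these genes can come from free RNA in the droplets. RNA from 1 source keeps its genes in 1 ratio within a library, so each level was set against the macrophage level of the same library, beside the same ratio for the sum of C1qa, C1qb and C1qc, complement genes of macrophages. In proximal tubule the C1q sum was at 2.03% and 0.653% of its macrophage level in mutants 1 and 2, against 0.464% and 0.0619% in wild types 1 and 2. In T cells it was at 1.57% and 0.505% in mutants, against 0.176% and 0.0284% in wild types. The order of libraries was that of their macrophage shares. All 11 macrophage markers had a UMI in tubule cells of every library and summed there to 620 and 189 CPM in mutants and 120 and 40.8 CPM in wild types. In T cells 9 to 11 of them had a UMI, with sums of 484 and 154 CPM in mutants and 74.1 and 26.1 CPM in wild types.

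In tubule cells Trem2, Tyrobp and Lyz2 lay within 2-fold of the C1q ratio in 3 of 4 libraries. Trem2 was at 1.43 and 1.00 times that ratio in mutants and 1.20 and 2.92 times in wild types, on 67 and 6 UMIs in mutants and 5 and 5 UMIs in wild types. Lyz2 was at 1.13 and 1.46 times in mutants and 1.44 and 7.53 times in wild types, and Tyrobp at 1.37 and 1.84 times in mutants and 1.70 and 5.79 times in wild types. Wild type 2, with 7.46 CPM of C1q in tubule, was the exception for each. The ratio takes macrophages as the source. In wild types 1 and 2, monocytes held 37443 and 9266 Lyz2 UMIs, against 25083 and 2360 in macrophages. For Tyrobp they held 8677 and 1699 UMIs, against 13702 and 599 in macrophages. The part of monocyte RNA in these ratios was not tested.

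Apoe lay further above that ratio in tubule cells than Trem2, Tyrobp or Lyz2 did, in all 4 libraries. It measured 913 and 1089 CPM in proximal tubule of mutants, against 689 and 303 CPM in wild types, where the C1q ratio alone corresponds to 206 and 89.3 CPM in mutants and 23.1 and 4.92 CPM in wild types. The level was thus 4.44 and 12.2 times the C1q ratio in mutants, and 29.9 and 61.7 times in wild types. These multiples depend on C1q, with 93, 65 and 45 UMIs of C1qa, C1qb and C1qc in wild type 2. The sum of all 11 macrophage markers was at 2.14% and 0.700% of its macrophage level in mutants, against 0.507% and 0.246% in wild types. Apoe was at 9.02% and 7.96% in mutants, against 13.9% and 3.82% in wild types. In T cells Apoe was at 1.00 and 1.68 times the C1q ratio in mutants and 2.51 and 10.2 times in wild types. Lyz2 there was at 0.986 and 1.92 times in mutants and 2.54 and 7.37 times in wild types, and Tyrobp at 1.59 and 2.26 times in mutants and 6.34 and 15.8 times in wild types. All 3 were thus further from the C1q ratio in wild-type than in mutant T cells. The part of monocyte RNA in this was not tested. The sum of all 11 macrophage markers was at 1.67% and 0.571% of its macrophage level in mutant T cells and 0.314% and 0.157% in wild types. Apoe was at 1.57% and 0.848% in mutants and 0.442% and 0.289% in wild types. Lyz2 was at 1.55% and 0.970% in mutants and 0.448% and 0.209% in wild types. Set against this sum, mutants and wild types overlapped for Apoe and Lyz2, but not for Tyrobp. Apoe in B cells had 1306 and 2138 CPM in mutants and 451 and 846 CPM in wild types. These were 5.90 and 37.9 times the C1q ratio in mutants and 12.9 and 408 times in wild types. Lpl in tubule was at 75.3% and 87.5% of its macrophage level in mutants and 75.9% and 57.3% in wild types, and Cd9 and Abca1 were at 11.1% to 39.3%, all far above the C1q ratio.

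**Figure D4:**
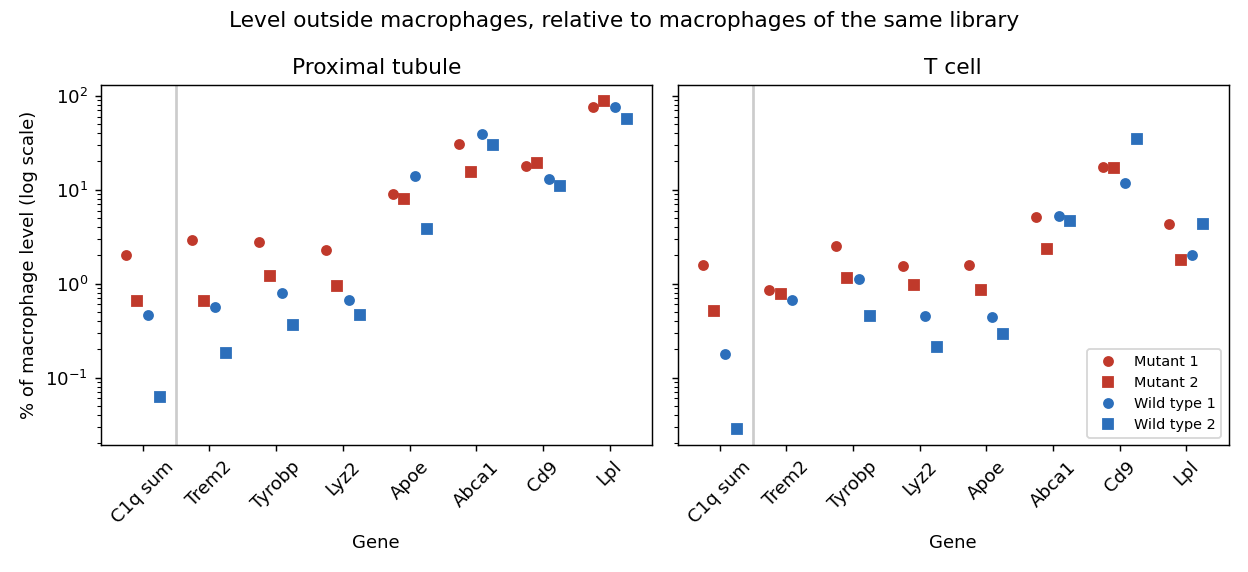
Level of 7 genes and of the C1q sum in proximal tubule (left) and T cells (right), as a percent of the level in macrophages of the same library, on a log axis. Points are libraries, mutants in red left of wild types in blue; in tubule Apoe lies further above the C1q sum than Trem2, Tyrobp and Lyz2, and in T cells Apoe, Tyrobp and Lyz2 lie further from it in wild types than in mutants. Trem2 in T cells of wild type 2 is at 0 and not drawn.

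Between genotypes, Lyz2 was the only one of the 9 genes that passed the test in proximal tubule. It measured 163 and 76.5 CPM in mutants, against 30.4 and 25.4 CPM in wild types, and rose by a log2 change of 2.25 with a standard error of 0.44 (adjusted p = 0.0343, edgeR). The fit called 65 of 13209 genes, 0.492%, and 0.432% in the direction of higher in mutants, beside 1 of 8 tested members. The members were chosen with such values in view, so this count is a description and no test of enrichment. An unadjusted p under 0.05 was reached by 8.64% of genes. The call was lost with library totals (adjusted p = 0.285), with the 9 genes allowed in clustering (0.0508), without mutant 1 (0.299) and without wild type 2 (0.247). The macrophage markers moved with it: all 11 had positive changes, with a median of 2.47 and none called, and at the C1q ratio Lyz2 would measure 144 and 52.5 CPM in mutants and 21.1 and 3.38 CPM in wild types.

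Trem2 and Tyrobp in proximal tubule did not pass. Trem2 had a log2 change of 3.54 with a standard error of 0.83 (adjusted p = 0.0707, edgeR), and Tyrobp, at 91.6 and 30.9 CPM in mutants and 19.6 and 4.96 CPM in wild types, had 2.40 with a standard error of 0.60 (adjusted p = 0.0936). Both passed without mutant 2 (0.00339 for Trem2 and 0.00176 for Tyrobp), where 112 of 14398 genes (0.778%) were called, and without wild type 1 (0.0198 and 0.00356). Apoe had a log2 change of 1.16 with a standard error of 0.62 (adjusted p = 0.653), and passed without wild type 1 (2.17, adjusted p = 0.00589), as did Cd9 (1.04, 0.0452) and Abca1 (-1.28, 0.0203). The fit without wild type 1 called 2134 of 14463 genes, 14.8%, and 6 of 8 members, with wild type 2 alone in its group; without wild type 2 it called 0 genes. With all libraries Abca1 was lower in both mutants, at 11.4 and 9.03 CPM, against 11.6 and 33.4 CPM in wild types, and Fabp5 was too. Both mutants lay above both wild types for 4 of 8 members and below both for 2, beside 14.3% and 21.8% of all genes.

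Of the list of lipid-associated and disease-associated macrophage genes, 18 were tested in proximal tubule. Of these 4 passed, all higher in mutants, beside 0.432% of all genes: Ccl3, Ccl4, Timp2 and Vim, named after their values were seen. The list was chosen with earlier results of these data known. Over all genes the 65 calls in this class fell to 0 with library totals and to 5 with the 9 genes allowed in clustering. Ccl4, a chemokine of macrophages and T cells, had 30.9 and 12.8 CPM in mutants, against 2.89 and 3.20 CPM in wild types (adjusted p = 0.00869, edgeR). In the same cells 4 of 12 tested T cell markers also passed, higher in mutants. No member of the Trem2 signalling, LXR, lipid uptake or lysosome lists passed there, and the part of RNA from other cells in these values was not tested.

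In T cells, Apoe measured 158 and 116 CPM in mutants, against 22.0 and 23.0 CPM in wild types. The groups were far apart relative to their spread, with a log2 change of 2.83 and a standard error of 0.34, but no gene passed in this fit (0 of 11921, 0.0% in either direction and 0.0% higher in mutants; Apoe unadjusted p = 9.52e-05, adjusted p = 0.748, edgeR). An unadjusted p under 0.05 was reached by 446 genes (3.74%), and DESeq2 called 5 genes (0.0419%), among them Apoe (adjusted p = 4.06e-09) and Lyz2 (1.01e-05). Lyz2 had 109 and 78.0 CPM in mutants, against 20.5 and 11.4 CPM in wild types, a log2 change of 2.78 with a standard error of 0.44. With edgeR both genes passed without mutant 1 (adjusted p = 0.0199 for Apoe and 0.0431 for Lyz2), without mutant 2 (0.00797 and 0.0116) and without wild type 1 (0.0416 and 0.0313), fits that called 0.0625%, 0.0947% and 0.616% of genes. Neither passed without wild type 2 (0.321 and 0.409) or with the replicate number as a block (0.225 and 0.1805).

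Tyrobp in T cells had 82.2 and 29.3 CPM in mutants, against 27.9 and 6.19 CPM in wild types. Trem2 had 8 and 19 UMIs in T cells of mutants and 2 and 0 UMIs in wild types, and Gpnmb had 1 and 6 UMIs in mutants and 4 and 5 UMIs in wild types, too few for the fit. Both mutants lay above both wild types for 3 of the 7 tested members (Apoe, Lyz2 and Tyrobp) and below both for Cd9 alone, beside 11.5% and 27.6% of all genes. The C1q sum in these T cells was 379 and 110 CPM in mutants, against 34.1 and 3.42 CPM in wild types, so the macrophage markers moved with Apoe and Lyz2, and their part in the difference was not tested.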

How the data were processed

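Single-cell libraries of 2 mutant and 2 wild-type kidneys were analysed. The deposited matrices hold raw UMI counts per gene and barcode, made with Cell Ranger 7.0.0 (mutants) or 7.1.0 (wild types) on mm10, per the submitters' processing notes; whether intronic reads were counted is not given in the sources used here. Cells had to show 200 or more genes, 500 or more UMIs and a mitochondrial part of 50% or less, and 97 to 239 predicted doublets per library were removed with Scrublet. Cells were normalised and clustered with scanpy 1.11.5 on 2000 variable genes without the 9 genes described (30 components, 15 neighbours, Leiden resolution 1), giving 34 clusters, which were named from marker lists where at least 3 markers were detected. Shallow clusters led by no marker were not named.

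UMIs were summed per library and class and fitted with edgeR 4.0.16 (quasi-likelihood F test, TMM, filterByExpr, Benjamini-Hochberg over all genes tested, threshold 0.05); DESeq2 1.42.0 was an alternative. P-values measure the spread between 2 mice per group; with 1 library left out, the lone mouse of a group is assumed to vary as the other group does. Intervals on single libraries cover counting error only. On simulated data the edgeR fit found 14% of 2-fold and 88% of 4-fold changes in macrophages, and 9% and 91% in monocytes. It found 9% and 81% in proximal tubule and 6% and 63% in T cells, so most 2-fold changes were missed. False calls numbered 0 in macrophages, 7 in monocytes, 6 in proximal tubule and 3 in T cells. The simulation gave each gene the spread fitted for its level and every library the same composition apart from the planted changes. Rates in the real data may therefore be different. The members and lists were chosen with earlier results of these data known. Named genes are the 9 members, up to 3 genes per pathway list with the smallest macrophage p, and the 5 genes most like Apoe and Trem2; 1 gene that this rule names is not reported here. Other genes were named after their values were seen. Free RNA was not removed.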

Additional observations from a re-analysis of the deposited data

How the results depend on the processing

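The macrophage count of 2 called genes became 0 with RLE size factors, 30 with library totals, 0 with no filter on low counts, 4 with DESeq2 and 1 with at least 1500 UMIs per cell. It was 9 to 327 when each library was left out, without wild type 1 at the top. The monocyte count of 2 became 1 with library totals, 46 with no filter and 4 with the 9 genes allowed in clustering, and 20 to 139 with a library left out. The proximal tubule count of 65 became 0 with library totals, 362 with no filter, 118 with DESeq2 and 5 with the 9 genes allowed in clustering, and 0 (without wild type 2) to 2134 (without wild type 1) with a library left out. The T cell count of 0 became 153 with no filter and 5 with DESeq2, and 1 to 79 with a library left out. With library totals the 30 macrophage calls were 4 higher and 26 lower. The cause of these changes in count was not tested. Only the fits with a library left out held fewer libraries. Library totals moved the median log2 change of all genes to -0.28 in macrophages, -0.17 in monocytes, -0.20 in proximal tubule and -0.19 in T cells. The difference in macrophage share, 16.7 percentage points, was 16.6 to 18.4 under its alternatives.

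With the replicate number as a block, counts were 579 in macrophages, 8 in monocytes, 178 in proximal tubule and 0 in T cells. Under the block Apoe (adjusted p = 0.0170), Trem2 (0.00464) and Tyrobp (0.0375) passed in macrophages, and Trem2 (0.0105) and Tyrobp (0.000807) in proximal tubule (edgeR), where the block called 4.62% and 1.35% of genes in these classes. Nothing in the labels says that a number marks a shared litter or day, and deviations of same-numbered libraries correlated at 0.13, 0.26, -0.22 and 0.25 in the 4 classes, so the numbers were not taken as pairs.

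Directions turned as follows on the log2 scale. In macrophages Abca1 was -0.39 with library totals and -0.011 with DESeq2, and Fabp5 -0.29 and -0.083; with a library left out Cd9 spanned -0.42 to 0.49, Lpl -0.32 to 0.020, Abca1 -0.62 to 0.86 and Fabp5 -0.93 to 2.22. In monocytes Abca1 was 0.0012 with no filter, and Fabp5 -0.21 with library totals and -0.26 with the 9 genes allowed in clustering; with a library left out Cd9 spanned -0.41 to 0.24, Lpl -0.14 to 1.95, Abca1 -0.42 to 0.28 and Fabp5 -0.44 to 0.70. In proximal tubule Lpl was 0.053 with at most 25% mitochondrial UMIs and spanned -0.29 to 0.20 with a library left out, and Cd9 -0.088 to 1.04. In T cells Fabp5 was -0.0049 with library totals, and with a library left out Cd9 spanned -0.84 to 0.033, Lpl -1.45 to 0.51, Abca1 -1.39 to 0.18 and Fabp5 -0.071 to 0.67. The share of macrophages with Fabp5, mutant minus wild type, was 0.761 percentage points without thinning, against -1.80 with it. With no filter on low counts, Trem2 and Tyrobp in proximal tubule and Apoe, Tyrobp and Lyz2 in T cells also passed, beside 1.68% and 0.749% of genes. The changes of Apoe, Trem2, Tyrobp and Lyz2 stayed positive in every class and alternative in which they were fitted. Depth limits Trem2 outside myeloid cells and all macrophage values of wild type 2.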
